A study of Saccharomyces cerevisiae with 8 samples.

Results

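Transcript and ribosome footprint levels were examined for 10 yeast genes of protein folding in the endoplasmic reticulum (ER) and of the unfolded protein response (UPR). The genes were taken by name: KAR2, LHS1, SIL1, SCJ1, JEM1, PDI1, ERO1, EUG1, MPD1 and HAC1. All 10 were found among the 6668 genes listed in each of the 8 libraries, and all 10 had a mean of at least 50 reads in each assay, as did 3737 genes in total. The strains were of the W303 background and carried no deletion (wild type), msp1Δ, pex19Δ or msp1Δ together with pex19Δ (double deletion). MSP1 encodes an AAA ATPase that removes misplaced tail-anchored proteins from the mitochondrial outer membrane, and PEX19 the chaperone and import receptor of peroxisomal membrane proteins. Every strain was grown in synthetic complete medium containing 2% glycerol and 2% ethanol, both non-fermentable. From every strain came a single RNA-seq library and a single library of ribosome-protected fragments (RPF, footprints), and the labels give neither the number of clones nor a batch. Values are relative within an assay, and in bulk cultures a lower share of cells and less RNA per cell cannot be told apart.

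With 1 library per genotype and assay there was no spread between replicates, so no difference below was tested and no p-value is given. Intervals are exact 95% intervals for counting error only. RNA-seq libraries held 4694951 to 5367091 reads and RPF libraries 1101458 (msp1Δ) to 2300792. MSP1 and PEX19 were listed at 1 read, the lowest value in the files, in the libraries of the strains that lack them and at 104 to 731 reads elsewhere. The msp1Δ RPF library stood apart. It had the fewest reads and the widest spread of log2 ratios to wild type (scaled median absolute deviation 0.43, against 0.27 in pex19Δ and 0.22 in the double deletion), and its ratios went with coding length (Spearman 0.31 across genes). In RNA-seq the pex19Δ library was the widest (0.30, against 0.19 in each of the others).

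As background, the ER lumen folds secretory proteins with the Hsp70 Kar2 (BiP), whose ATP cycle is set by J-domain proteins and nucleotide exchange factors, and with an oxidative pathway in which Ero1 passes oxidising equivalents to protein disulfide isomerases. When unfolded proteins accumulate, the kinase and nuclease Ire1 cuts the intron out of HAC1 mRNA in the cytoplasm and the tRNA ligase Trl1 joins the exons. Before splicing, pairing of the intron with the region in front of the start codon holds back translation of HAC1. The spliced mRNA gives the bZIP transcription factor Hac1, which binds UPR elements upstream of its target genes.

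UPR elements are shown first because several of the 10 genes share them. The genes were chosen by name as genes of ER folding and the UPR, so the counts below are not independent of that choice. The match of KAR2 to its own element was given in advance. The letters CAGCGTG (the core of the KAR2 element) and TACGTG (another, shorter type of element) were searched on either strand in the 500 bases before each start codon in the R64 reference, which is strain S288C and not W303. CAGCGTG was present upstream of KAR2 and LHS1, and in 2.33% of all 6006 such windows. TACGTG was present upstream of SIL1, ERO1, EUG1 and MPD1, and in 13.1% of windows. One or the other was thus found for 6 of the 10 genes and in 899 of the 6006 windows. The looser form CANCNTG, which contains CAGCGTG, occurred in 45.5% of windows and upstream of 6 of the 10 genes (KAR2, LHS1, SCJ1, PDI1, EUG1 and HAC1), so JEM1 alone had none of these letters. The windows of 30 bases around the stricter matches are given 5′ to 3′ on the strand of the gene, with the match (or its reverse complement CACGCTG or CACGTA) in capitals.
KAR2 (chrX:381156-381185, plus strand): gaggaactggaCAGCGTGtcgaaaaagttg
LHS1 (chrXI:296320-296349, plus strand): ataatatcgaaCACGCTGttataaaagtga
SIL1 (chrXV:267614-267643, minus strand): atgtgaaaaggcCACGTAaatgatagagca
ERO1 (chrXIII:13296-13325, minus strand): aacgatacggagTACGTGtcataaaaactt
EUG1 (chrIV:1478422-1478451, plus strand): ttcccttcaaaaCACGTAaacgatagttgg
MPD1 (chrXV:853162-853191, minus strand): aattaaaattgaCACGTAaaagttaaataa
Counted back from the start codon, the first base of the match lay at position 160 for KAR2, 99 for LHS1, 102 for SIL1 and MPD1, 139 for ERO1 and 174 for EUG1. A match of letters is a description and was not tested as a binding site.

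The HAC1 sequences around its intron are shown because translation of this gene is known to depend on them and its RPF level is described further on. HAC1 (YFL031W) lies on chromosome VI from 75179 to 76147, with exon 1 of 661 nt, an intron of 252 nt from 75840 to 76091 and exon 2 of 56 nt. The first 2 lines below are the 30 bases at each intron end. Capitals mark the letters CNGNNG, which Ire1 is known to need, placed so that the cut follows the third capital. The next pair of lines shows the longest perfectly complementary run, 11 bases in capitals, between the intron and the 100 bases before the start codon, with its surroundings. In the 23 bases printed for each, 17 are complementary.
exon 1 to intron (chrVI:75825-75854, plus strand): attggcgtaatcCAGCCGtgattacgatga
intron to exon 2 (chrVI:76077-76106, plus strand): tgcttgtactgtCCGAAGcgcagtcaggtt
before the start codon (chrVI:75141-75163, plus strand): aacctcCTCCTCCCCCAcctacg
within the intron (chrVI:75938-75960, plus strand): ctctgaTGGGGGAGGAGccggtt
The complementary run covered bases 32 to 22 before the start codon and bases 105 to 115 of the intron. In the authors' deposited RPM and RPKM of the one library that has them, HAC1 was given a length of 667 nt. That is 50 nt less than its 717 nt of spliced coding sequence, and the other 9 genes were likewise 50 nt short of their coding length. The intron is thus not in the length used. Whether intron reads of HAC1 were counted is not given in the files or labels, and spliced and unspliced mRNA are not separated in the gene totals. Intron reads, if counted, would add to HAC1 RNA and TPM and lower its RPF per RNA; their part was not tested.

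Levels per length spanned a wide range among the 10 genes. In wild-type RNA-seq the authors' deposited TPM was highest for HAC1 (1556 TPM, position 65 of 3737 genes from the top), then KAR2 (1047) and PDI1 (713). ERO1 (146), SIL1 (90.7), MPD1 (83.3) and LHS1 (82.8) followed at a distance, then JEM1 (60.9), SCJ1 (59.9) and EUG1 (38.9). In wild-type RPF the order began with PDI1 (873 TPM) and KAR2 (521), followed by HAC1 (286). The remaining genes had between 23.6 (JEM1) and 73.6 TPM (ERO1) in RPF. Together the 10 genes took 0.606% of wild-type RNA-seq reads and 0.421% of RPF reads. In msp1Δ these shares were 0.724% and 0.56%, in pex19Δ 0.504% and 0.36% and in the double deletion 0.702% and 0.493%, so that pex19Δ had the lowest share in both assays and msp1Δ the highest. The shares are weighted to the most abundant members. KAR2 took 0.249% and PDI1 0.129% of wild-type RNA-seq reads, and 0.144% and 0.183% of wild-type RPF reads. In msp1Δ RPF the share of KAR2 was 0.239%.

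**Figure D1:**
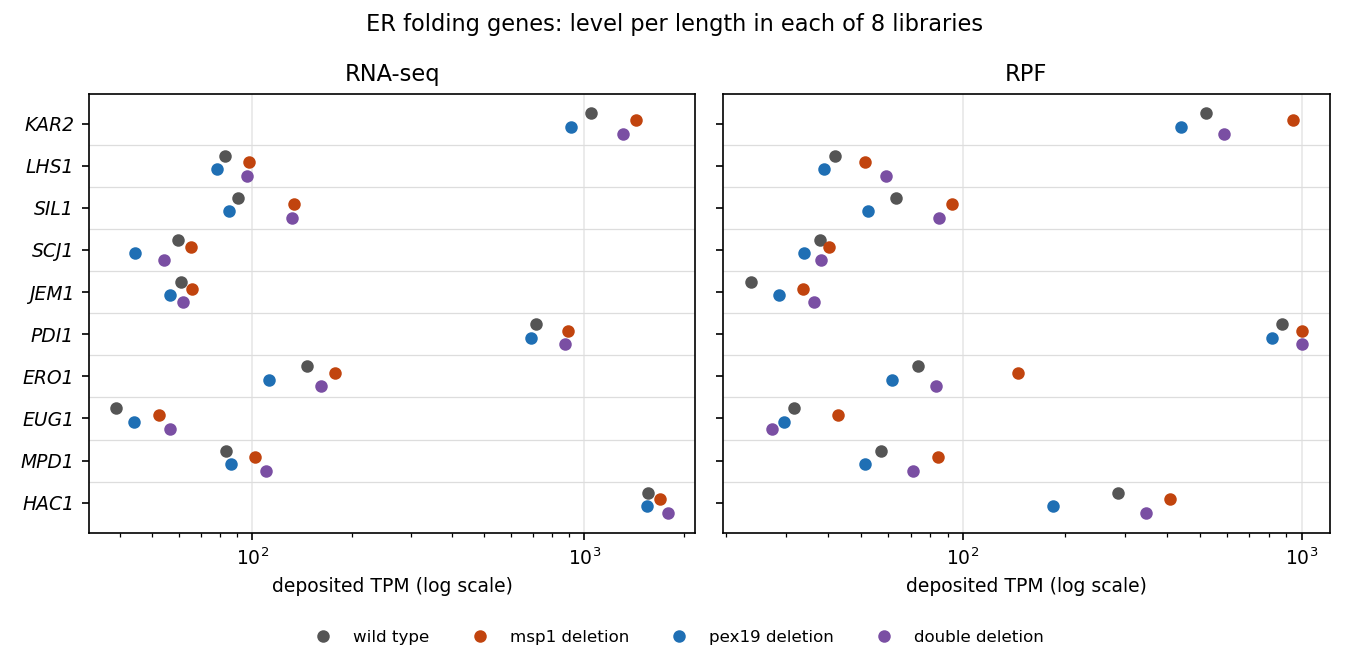
Level per length of each gene (deposited TPM, log axis) in RNA-seq (left) and RPF (right); each point is 1 library, coloured by genotype, with no error bar because there are no replicates. HAC1 is the highest gene in RNA-seq (1556 TPM in wild type) but lies below PDI1 and KAR2 in RPF (286 TPM).

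Loss of MSP1 could be compared in 2 backgrounds that share no library, msp1Δ against wild type and the double deletion against pex19Δ. The comparisons of the 3 deletion strains with wild type, by contrast, share the wild-type libraries. The double deletion against pex19Δ also shares the pex19Δ libraries with pex19Δ against wild type, so low values in them enter both. In RNA-seq all 10 genes were higher without MSP1 in each of these comparisons, where 49.5% and 47.8% of all genes were. In RPF 9 of 10 were higher in each, the exceptions being SCJ1 in msp1Δ and EUG1 in the double deletion, against 51.1% and 50.0% of all genes. The small RPF ratios of LHS1, SCJ1 and PDI1 in msp1Δ took the other sign under some scalings. The medians of the 10 log2 ratios were 0.24 in RNA-seq and 0.37 in RPF for msp1Δ against wild type, and 0.38 and 0.47 for the double deletion against pex19Δ. Medians over all 3737 genes lay between −0.02 and 0.01 in the same 4 comparisons of libraries. The differences were small, so a difference of at least 0.32 on the log2 scale in both assays was used as a descriptive limit.

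At that limit KAR2 and SIL1 were higher in msp1Δ than in wild type, 2 of 10 genes against 2.68% of all genes. In the double deletion against pex19Δ 6 of 10 were higher, KAR2, LHS1, SIL1, PDI1, ERO1 and MPD1, against 3.77% of all genes. In neither comparison was a member lower by this limit, where 2.27% and 3.13% of all genes were. In RNA-seq alone, where the msp1Δ RPF library plays no part, KAR2, SIL1 and EUG1 passed in msp1Δ, 3 of 10 against 6.32% of all genes. In the RPF library of msp1Δ alone 6 of 10 passed, but so did 23.8% of all genes. TMM (the scaling between libraries) was also computed over all listed genes, which moved the median RPF ratio of all genes by −0.20. Only 1 member then passed in both assays in msp1Δ, and the share of all genes at that setting is not given.

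**Figure D2:**
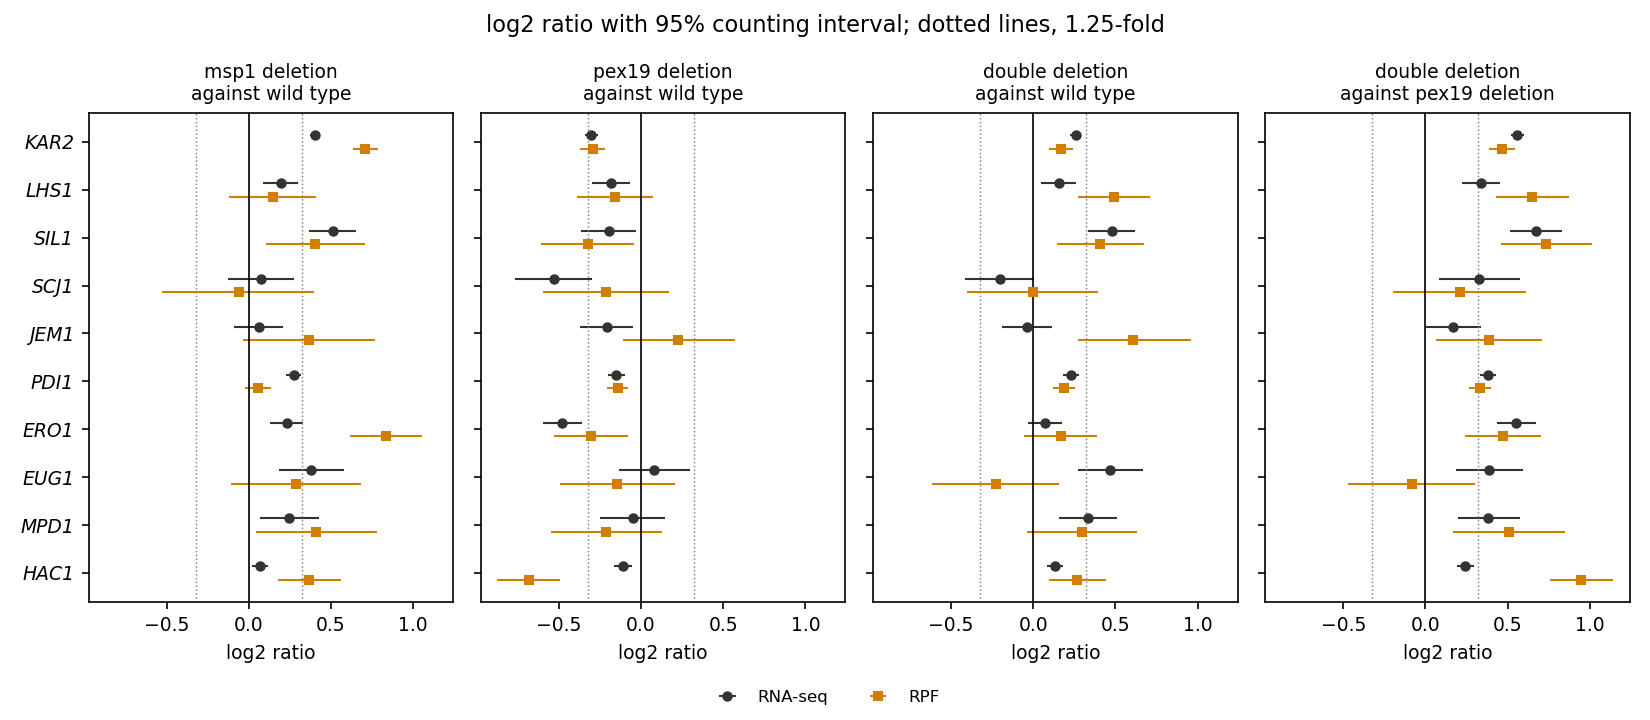
log2 ratios of the 10 genes in RNA-seq (black circles) and RPF (orange squares) for 4 comparisons, with exact 95% counting intervals as bars and the limit of 0.32 as dotted lines. Most genes lie right of 0 in msp1Δ, left of 0 in pex19Δ and furthest right in the double deletion against pex19Δ, where 6 of 10 pass the limit in both assays.

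KAR2, the Hsp70 at the centre of ER folding (YJL034W; chromosome X, 381327 to 383375; R64, 1 coding exon as for every member but HAC1), had 13370 RNA-seq reads in wild type, 17125 in msp1Δ, 9192 in pex19Δ and 14690 in the double deletion. Its RPF reads were 3069, 2634, 2707 and 2773 in the same order. Scaled to library size these were 2459, 3249.9, 1995 and 2940.1 CPM (library-scaled counts) in RNA-seq and 1452, 2372, 1183 and 1634 CPM in RPF. In both assays the order was thus pex19Δ, wild type, double deletion, msp1Δ. As log2 ratios, msp1Δ exceeded wild type by 0.40 (interval 0.37 to 0.44) for RNA and by 0.71 (0.63 to 0.78) for footprints. The double deletion exceeded pex19Δ by 0.56 (0.52 to 0.60) and 0.47 (0.39 to 0.54). In pex19Δ KAR2 was −0.30 (−0.34 to −0.26) and −0.30 (−0.37 to −0.22) relative to wild type, just short of the limit. None of these counting intervals of KAR2 included 0, but variation between cultures was not measured.

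The nucleotide exchange factors of Kar2 were SIL1 and LHS1, the latter itself related to Hsp70. SIL1 (YOL031C; chromosome XV, 266264 to 267529) had 705, 973, 521 and 902 RNA-seq reads in wild type, msp1Δ, pex19Δ and the double deletion, and 227, 158, 196 and 242 RPF reads. Both strains without MSP1 were higher than both strains with it once scaled, with 185 and 181 CPM in RNA-seq against 129.7 and 113 CPM. SIL1 RNA was 0.51 higher in msp1Δ than in wild type (0.37 to 0.65) and its RPF 0.40 (0.10 to 0.71), and both were 0.67 (0.52 to 0.83) and 0.73 (0.46 to 1.01) higher in the double deletion than in pex19Δ. SIL1 was also past the limit in the double deletion against wild type (0.48 and 0.41). LHS1 (YKL073W; chromosome XI, 296430 to 299075) had 1373, 1523, 1025 and 1404 RNA-seq reads and 320, 186, 310 and 361 RPF reads in that order of strains. Its largest difference was between the double deletion and pex19Δ, 0.34 for RNA (0.22 to 0.45) and 0.65 for RPF (0.43 to 0.87). The msp1Δ ratios of LHS1 were 0.19 for RNA and 0.15 for RPF. The interval of the RPF ratio included 0 (−0.12 to 0.41), and TMM over all listed genes turned it to −0.05.

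The J-domain co-chaperones of Kar2 were SCJ1 and JEM1. SCJ1 (YMR214W; chromosome XIII, 695350 to 696483), a soluble lumenal protein, had 415, 423, 243 and 331 RNA-seq reads and 121, 61, 113 and 97 RPF reads in wild type, msp1Δ, pex19Δ and the double deletion. Its RNA was lowest in pex19Δ (−0.53 against wild type, −0.77 to −0.30), while every RPF ratio of SCJ1 had an interval that included 0. JEM1 (YJL073W; chromosome X, 303181 to 305118), an ER membrane J-domain protein also needed for nuclear fusion in mating, had 735, 742, 539 and 658 RNA-seq reads and 131, 89, 166 and 161 RPF reads. JEM1 was the member whose RPF was lowest in wild type, and all 3 deletions were higher, by 0.37 in msp1Δ (−0.03 to 0.77), 0.23 in pex19Δ (−0.11 to 0.57) and 0.61 in the double deletion (0.27 to 0.96). The log2 ratios of JEM1 RNA in the same strains were 0.06, −0.21 and −0.04. In the double deletion the change in RPF per RNA of JEM1 was thus 0.65 (0.28 to 1.01), at percentile 97.1 of all genes.

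Among the genes of disulfide formation, PDI1 (YCL043C; chromosome III, 48653 to 50221) encodes the essential protein disulfide isomerase. Its RNA-seq reads were 6918 in wild type, 8104 in msp1Δ, 5283 in pex19Δ and 7463 in the double deletion, and its RPF reads 3902, 2131, 3826 and 3569. RNA of PDI1 was 0.27 higher in msp1Δ (0.23 to 0.32) and 0.23 in the double deletion (0.18 to 0.28) than in wild type. RPF of PDI1 was 0.19 higher in the double deletion (0.12 to 0.25), but in msp1Δ it was 0.06 (−0.02 to 0.13), a value that turned to −0.14 under TMM over all listed genes. In msp1Δ the change in RPF per RNA was −0.22 for PDI1 (−0.31 to −0.13) and 0.31 for KAR2 (0.22 to 0.39). These lay at percentiles 29.5 and 75.1 of all genes, within the bulk of that comparison.

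ERO1 (YML130C; chromosome XIII, 11483 to 13174), the thiol oxidase that re-oxidises Pdi1, had 1534, 1744, 932 and 1484 RNA-seq reads and 356, 334, 312 and 321 RPF reads in wild type, msp1Δ, pex19Δ and the double deletion. With 1101458 reads in all, the shallow msp1Δ RPF library held more ERO1 reads than those of pex19Δ and the double deletion, and its scaled level was the highest. Relative to wild type, ERO1 RNA in msp1Δ was 0.23 higher (0.13 to 0.33) and ERO1 footprints 0.83 (0.62 to 1.06). In pex19Δ ERO1 was lower in both assays, −0.48 (−0.60 to −0.36) and −0.30 (−0.53 to −0.08), and the double deletion lay 0.55 and 0.47 above pex19Δ. In both assays the order of strains for ERO1 was that of KAR2.

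The isomerase homologues EUG1 (YDR518W; chromosome IV, 1478608 to 1480161) and MPD1 (YOR288C; chromosome XV, 852121 to 853077) were low. EUG1 had 374, 472, 335 and 476 RNA-seq reads and 140, 90, 137 and 96 RPF reads in the usual order of strains, wild type, msp1Δ, pex19Δ and double deletion. Its RNA and RPF parted in the double deletion, where RNA was 0.47 above wild type (0.27 to 0.67) and RPF −0.23 (−0.62 to 0.16). The resulting change in RPF per RNA, −0.69 (−1.12 to −0.27), lay at percentile 1.39 of all genes. MPD1 had 483, 555, 395 and 559 RNA-seq reads and 153, 107, 143 and 151 RPF reads. It was higher in the double deletion than in pex19Δ by 0.38 (0.20 to 0.57) and 0.51 (0.17 to 0.85), and its pex19Δ RNA hardly stood apart from wild type (−0.05, −0.25 to 0.14).

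Loss of PEX19 went the other way in the wild-type background. This comparison uses the same pex19Δ libraries as the double deletion against pex19Δ, so they are not independent results. In pex19Δ 9 of 10 genes were lower than in wild type in RNA-seq, where 48.8% of all genes were, and 9 of 10 in RPF, where 49.0% were. The exceptions were EUG1 in RNA-seq (0.08) and JEM1 in RPF (0.23). The median log2 ratio was −0.19 in RNA-seq and −0.21 in RPF, and 0 of 10 were past the limit in both assays, where 2.62% of all genes were lower and 3.18% higher. After removal of the trend with length and GC content 1 was lower, and the share of all genes at that setting is not given. In RNA-seq alone SCJ1 and ERO1 were past the limit, 2 of 10 against 15.1% of all genes, and in RPF alone SIL1 and HAC1, 2 of 10 against 10.9%. Both shares are near the background. Of the 4 genotypes pex19Δ had the lowest RNA for 9 of 10 genes and the lowest RPF for 8. Across all genes pex19Δ was the lowest strain for 34.2% by RNA and for 19.5% by RPF.

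In the msp1Δ background loss of PEX19 gave medians nearer 0, −0.04 in RNA-seq and −0.05 in RPF for the double deletion against msp1Δ. In RNA-seq 7 of 10 were lower, against 50.6% of all genes, and in RPF 5, against 49.9%. None of the 10 passed the limit in both assays in either direction, where 1.79% of all genes were higher and 3.1% lower. KAR2 (−0.14 and −0.54) and ERO1 (−0.16 and −0.67) were the genes lower in both assays, and the RPF values come from the shallow msp1Δ library. The RPF median changed sign (0.08) under TMM over all listed genes, which moved the median of all genes by 0.13 here.

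The double deletion against wild type combined both losses. In RNA-seq 8 of 10 genes were higher, all but SCJ1 and JEM1, against 47.7% of all genes, and in RPF 8 of 10, all but SCJ1 and EUG1, against 51.7%. The medians were 0.19 in RNA-seq and 0.23 in RPF. SIL1 was past the limit in both assays, 1 of 10 against 1.77% of all genes, and 0 were lower, against 1.39%. The sign of JEM1 RNA and of SCJ1 RPF, −0.04 and −0.002, turned under some scalings.

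The nonadditive value was the double deletion minus both single deletions plus wild type on the log2 scale. In RNA-seq it ran from 0.01 (EUG1) to 0.32 (ERO1) among the 10 genes, between percentiles 52.0 and 80.6 of all genes. In RPF it ranged from −0.37 (EUG1) to 0.58 (HAC1), at percentiles 26.8 to 85.7. By this measure each member lay well within the spread of all genes, though in RNA-seq every member was above 0 and above the median gene.

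HAC1 was the member with the fewest footprints per RNA in every strain. Its RNA-seq reads were 6633 in wild type, 6730 in msp1Δ, 5208 in pex19Δ and 6685 in the double deletion, and its RPF reads 562, 381, 379 and 543. RPF per RNA, as the log2 ratio of RPF CPM to RNA-seq CPM minus that of the median gene of the library pair, was −1.88 in wild type (−2.00 to −1.75), −1.63 in msp1Δ (−1.78 to −1.48), −2.48 in pex19Δ (−2.63 to −2.33) and −1.78 in the double deletion (−1.91 to −1.66). HAC1 mRNA thus carried 3.67-, 3.09-, 5.56- and 3.44-fold fewer footprints per RNA-seq read than the median gene in the 4 strains. The other 9 genes lay between −0.80 (JEM1 in wild type) and 0.86 (PDI1 in wild type). PDI1 was the highest member in each strain, at 0.59 to 0.86.

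RPF per RNA was lower for longer coding sequences in every genotype (Spearman −0.69 to −0.76 across 3735 genes), so HAC1 was also set beside genes of similar length. Among the 624 genes whose coding length was within 25% of its 717 nt, HAC1 stood at position 2 from the lowest in wild type, msp1Δ and pex19Δ and at position 3 in the double deletion, a comparison added after the values were seen. GCN4, whose translation is held back by upstream open reading frames, was lowest in each. Relative to the median of these genes HAC1 stood at −2.47, −2.10, −2.96 and −2.39 in wild type, msp1Δ, pex19Δ and the double deletion. KAR2 and ERO1 were near the median of genes of their own length, within −0.17 and 0.29 in every genotype, and PDI1 was 0.67 to 1.01 above.

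**Figure D3:**
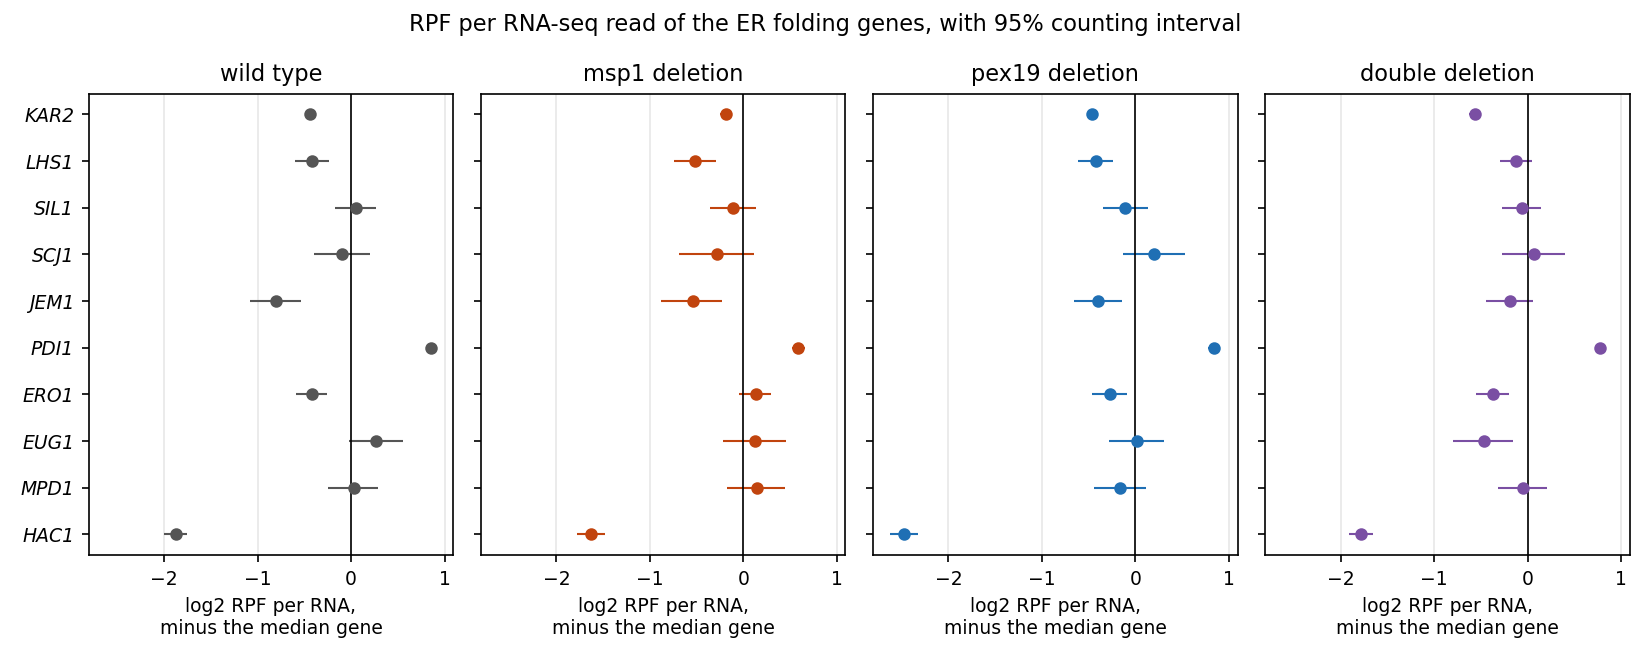
RPF per RNA-seq read (log2 of the CPM ratio, minus the median of 3737 genes) for each gene, 1 panel per genotype, with 95% counting intervals. HAC1 lies between −1.63 and −2.48 in every panel, PDI1 between 0.59 and 0.86, and the rest nearer 0.

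Between genotypes HAC1 varied more in RPF than in RNA. Scaled RPF was 166 CPM in pex19Δ, 266 in wild type, 319.98 in the double deletion and 343 in msp1Δ, while scaled RNA lay between 1130.2 CPM (pex19Δ) and 1338 CPM (double deletion). Between pex19Δ and wild type HAC1 RNA differed by −0.11 (−0.16 to −0.06) and HAC1 RPF by −0.68 (−0.87 to −0.49). That RPF ratio lay at percentile 1.04 of all genes, and stayed between −0.70 and −0.63 under the 12 alternative settings run. The change in HAC1 footprints per RNA in pex19Δ was −0.57 (−0.77 to −0.38), at percentile 7.12 of all genes. Relative to wild type, HAC1 RNA was 0.07 higher in msp1Δ (0.02 to 0.12) and its RPF 0.37 (0.18 to 0.56). The double deletion gave 0.13 (0.08 to 0.18) and 0.27 (0.09 to 0.44). From pex19Δ to the double deletion its RPF was 0.95 higher (0.76 to 1.14), at percentile 99.7 of all genes, against 0.24 in RNA-seq.

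The RPF order of HAC1, pex19Δ below wild type below double deletion below msp1Δ, was also the order of KAR2 in both assays. This order was picked out after the values were seen. It held for 5 of the 10 genes in RNA-seq (KAR2, LHS1, SIL1, PDI1 and ERO1), against 5.22% of all genes, and for 4 in RPF (KAR2, ERO1, MPD1 and HAC1), against 4.5%. These counts include KAR2 in both assays and HAC1 in RPF, the genes from which the order was taken. For HAC1 the highest pair, double deletion and msp1Δ, did not differ beyond counting error in RPF (−0.10, −0.29 to 0.09). With 4 points per assay from 1 culture each, no correlation within an assay is given. The likeness to KAR2 over all 8 libraries, given further on, is a description and was not tested.

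**Figure D4:**
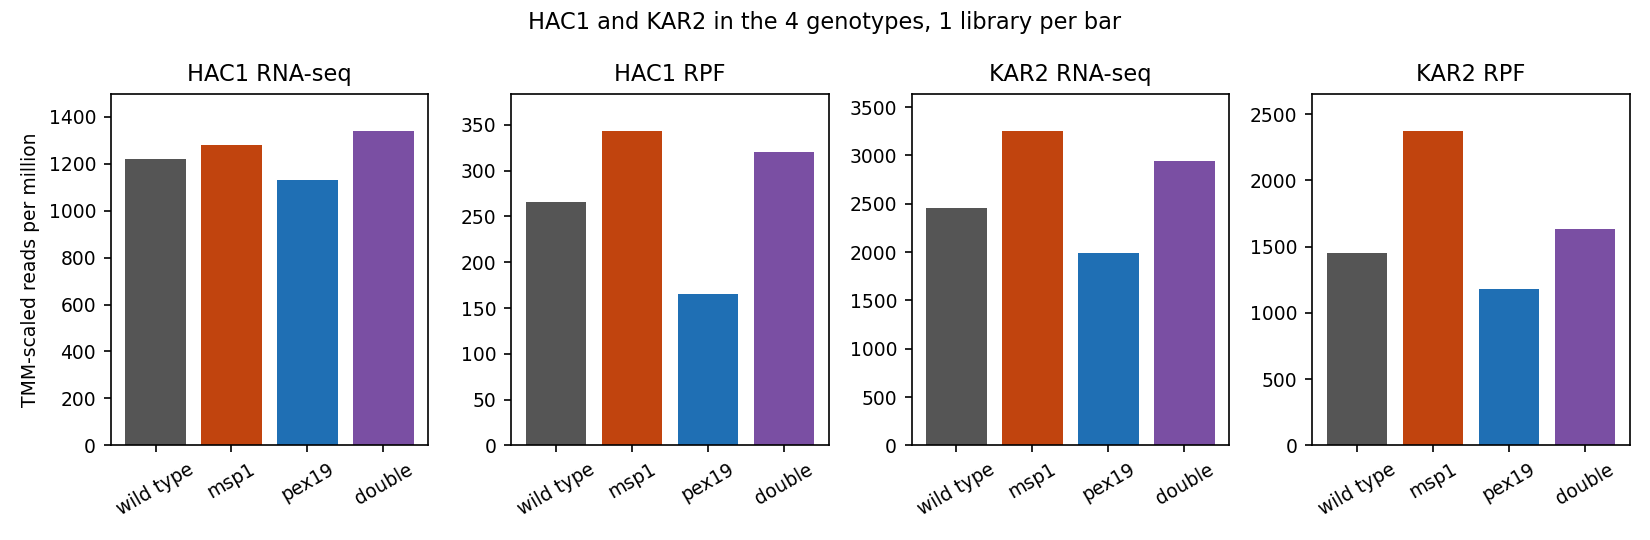
TMM-scaled counts (CPM) of HAC1 and KAR2 in RNA-seq and RPF, 1 library per bar and axes from 0. HAC1 RNA is nearly level (1130.2 to 1338) while its RPF runs from 166 in pex19Δ to 343 in msp1Δ; KAR2 RPF is also lowest in pex19Δ (1183) and highest in msp1Δ (2372).

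IRE1, the sensor that cuts HAC1 mRNA, and TRL1, the ligase that joins it, were far lower than HAC1 itself, at 46.8 and 29.4 TPM in wild-type RNA-seq. IRE1 RNA-seq reads were 986, 1005, 946 and 936 in wild type, msp1Δ, pex19Δ and the double deletion, and its RPF reads 77, 49, 88 and 59. Neither gene was past the limit in both assays in any deletion against wild type. For IRE1 the intervals of all 3 RPF ratios to wild type included 0. TRL1 RPF was 0.48 above wild type in the double deletion (0.08 to 0.90), on 95 and 107 reads.

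Lists of other ER genes had RNA-seq medians nearer 0 in msp1Δ than the 0.24 of the 10 genes. In RPF this was not so for every list. There the medians of N-glycosylation (0.48) and O-mannosylation genes (0.47) in msp1Δ were above the 0.37 of the 10 genes. All lists, like the 10 genes, were drawn up with earlier results of the data known. Of 14 measured other ER folding factors, 7 were higher in msp1Δ in RNA-seq and 9 in RPF (medians −0.02 and 0.13). In pex19Δ their RNA was raised for 5 and lowered for 9 (median −0.22), where 48.8% of all genes were lower. Their pex19Δ footprints were raised for 11 and lowered for 3 (median 0.11), where 51.0% of all genes were higher. The lower RNA in pex19Δ was thus not particular to the 10 genes, whose median was −0.19. The RPF median of this list had the opposite sign to their −0.21. FPR2, an ER prolyl isomerase known as a UPR target, was the one past the limit in both assays in msp1Δ (0.35 and 0.39). ER translocation genes (19 measured) had medians of 0.06 and 0.09 in msp1Δ, −0.03 and 0.11 in the double deletion, and 0.14 and −0.06 in pex19Δ. SEC11, the catalytic subunit of signal peptidase, was the one past the limit, at 0.63 and 0.54 in msp1Δ.

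N-glycosylation genes (23 measured) had RNA-seq medians of 0.01 in msp1Δ, 0.01 in pex19Δ and 0.03 in the double deletion, with RPF medians of 0.48, 0.25 and 0.18. Their RPF medians were thus positive in pex19Δ as well, unlike those of the 10 genes. ALG7, which starts the lipid-linked glycan, was 0.54 and 0.57 higher in msp1Δ, and ALG8, a glucosyltransferase of the same pathway, 0.41 and 0.40 in pex19Δ. The 6 O-mannosyltransferase genes PMT1 to PMT6 had medians of −0.05 and 0.47 in msp1Δ, and the 19 genes of COPII and p24 cargo export 0.09 and 0.17, with ERP1 of the p24 family past the limit (0.36 and 0.47).

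The list of other genes known to be induced by the UPR is not separate from the lists above. FPR2, SBH1, SEC62, WBP1, OST2, PMT2 and PMT3 belong to those as well. Of its 10 measured genes, 9 were higher in msp1Δ in RNA-seq and 5 in RPF (medians 0.16 and 0.19), beside 49.5% and 51.1% of all genes. ULI1, INO1 and FPR2, the last counted above as well, were past the limit in both assays, beside 2.68% of all genes. In pex19Δ 5 of the 10 were higher and 5 lower in RNA-seq, and 3 were higher and 7 lower in RPF (medians −0.04 and −0.17). ULI1 followed the order of KAR2 with a wider range. RNA-seq reads of ULI1 were 420 in wild type, 717 in msp1Δ, 62 in pex19Δ and 515 in the double deletion, and RPF reads 67, 83, 15 and 82. The double deletion lay 2.92 above pex19Δ for RNA (2.56 to 3.34) and 2.79 for RPF (2.08 to 3.78). INO1, inositol 3-phosphate synthase, was higher in msp1Δ (0.45 and 0.49) and also in pex19Δ (0.51 and 0.41). Genes outside the member list with CAGCGTG upstream (97 measured) had medians of 0.05 and 0.06 in msp1Δ and 0.03 and 0.01 in the double deletion against pex19Δ, close to those of all genes.

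The genes whose pattern was most like that of KAR2 were sought among 1452 genes with a mean of at least 200 reads in each assay. Likeness was Pearson's r over the 8 libraries, with log2 values centred within each assay, and these points share libraries and 1 culture per genotype. ERO1 was at position 3 of all (r = 0.98), SIL1 was at position 21 (0.89), HAC1 at 47 (0.79), PDI1 at 78 (0.74) and LHS1 at 139 (0.63); the other 4 members were below the read minimum. The closest genes outside the member list were YPK2, a protein kinase gene (0.99), CTR1, the high-affinity copper transporter (0.99), YDR262W (0.97), YET1, an ER membrane protein (0.96), and GFA1, of glucosamine synthesis (0.96). Likeness says nothing of size: YPK2 was 0.11 and 0.16 higher in msp1Δ, and CTR1 0.31 and 0.74.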

How the data were processed

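The submitters' processing notes name cutadapt 1.8, STAR 2.5 and sacCer3 (R64). No source used here names the read counter or says whether counting used strand. The authors' deposited counts, per the file headers, are whole numbers with a lowest listed value of 1. The authors' deposited TPM values served for levels per length and as an alternative. The authors' deposited RPM and RPKM, in the double-deletion RNA-seq file, served only to derive gene lengths. Blank lines were dropped.

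Scaling was by TMM, separately for RNA-seq and RPF (edgeR 4.0.16 under R 4.3.3), over genes averaging 50 reads or more. Ratios on the log2 scale had 1 read added. Intervals are exact Clopper-Pearson (conditional binomial) at 95%, except that those of changes in RPF per RNA between strains use a normal approximation. Without molecular identifiers PCR duplicates cannot be removed, so all intervals cover counting error only. With 1 library per genotype and assay no count test could be run. The scaling, the log2 ratio and its counting interval were tried on simulated counts with Poisson noise only. Spread between cultures, RPF per RNA, the nonadditive value and the search for letters were not covered.

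The 10 genes and all lists were chosen with earlier results of these data known. Named genes are the members, IRE1, TRL1, the translational comparators GCN4, CLN3 and CPA1, list genes past 0.32 on the log2 scale in both assays against wild type (at most 3 each way), the 5 genes most like KAR2, and the 5 lowest in RPF per RNA. Near-identical copies (blastn 2.17.0, at least 90% identity over 100 nt) were found for 0 of the 10 members, and no gene annotated in the R64 reference overlapped one. ULI1 in the double deletion against pex19Δ was named after its values were seen. Alternatives were other scalings (library totals, DESeq2 1.42.0 size factors, TMM over all genes or without ribosomal protein genes), pseudocounts, read minimums, folds, 1 read subtracted, removal of length and GC trends, and TPM.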

Additional observations from a re-analysis of the deposited data

How the results depend on the processing

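Every median of the 10 genes kept its sign under the 12 alternative settings, except that of RPF in the double deletion against msp1Δ. Medians in msp1Δ against wild type ran from 0.21 to 0.28 in RNA-seq and 0.17 to 0.51 in RPF, and in pex19Δ from −0.24 to −0.09 and −0.29 to −0.16. Counts of genes past the limit of 0.32 in both assays were less stable. In msp1Δ the count of 2 became 1 under TMM over all listed genes and with no filter. In pex19Δ the count of 0 lower became 1 with the length and GC trend removed. A fold of 1.5 left 0 higher in msp1Δ, 0 in the double deletion against wild type and 1 against pex19Δ. A fold of 2 left 0, 0 and 0, where only 0.161%, 0.0268% and 0.187% of all genes passed. At so small a share 0 of 10 says little about the members. Shares of all genes at a fold of 1.5 and under the other altered settings are not given, so those counts have no background beside them.

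Chosen after seeing the data, RNA-seq alone gave 2 of 10 lower in pex19Δ (15.1% of all genes) and 3 higher in the double deletion (6.45%). RPF alone gave 6 higher in msp1Δ (23.8% of all genes), 2 lower in pex19Δ (10.9%) and 3 higher in the double deletion (10.4%). In the double deletion against msp1Δ it gave 1 higher (23.4%) and 3 lower (23.0%), near or below the shares of all genes. HAC1 RPF per RNA without centring on the median gene was −2.23, −1.88, −2.75 and −2.07 in wild type, msp1Δ, pex19Δ and the double deletion. Centred on genes averaging 200 reads or more it was −2.43, −2.05, −2.92 and −2.30. No paired analysis was possible because each genotype has 1 library per assay and the labels carry no replicate numbers. Depth limits SCJ1, JEM1, EUG1 and MPD1 most, with 61 to 107 RPF reads in msp1Δ.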

Other observations

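The genes with the lowest footprints per RNA, averaged over the 4 genotypes, were DYN1, GCN4, IRA2, CSF1 and FMP27, with mean log2 values from −4.32 to −3.53; HAC1 was at position 142 of 3737. DYN1, IRA2, CSF1 and FMP27 have coding sequences of 7887 to 12279 nt, whereas that of GCN4 is 846 nt. GCN4, the activator of amino acid synthesis genes, went the opposite way to HAC1 in the single deletions. Its RPF per RNA was −4.10 in wild type, −4.85 in msp1Δ, −3.57 in pex19Δ and −4.30 in the double deletion, on 207, 74, 335 and 169 RPF reads. CLN3, a cyclin gene with an upstream open reading frame, stood at −1.87, −2.29, −1.54 and −2.20 on 84, 36, 128 and 55 RPF reads. The counting intervals of its changes against wild type all included 0 (−0.94 to 0.21 in msp1Δ, −0.07 to 0.77 in pex19Δ and −0.79 to 0.22 in the double deletion). CPA1, of arginine synthesis and also with an upstream open reading frame, stood at −1.53, −1.21, −1.28 and −1.45.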
